A study of Oncorhynchus mykiss with 24 samples.

Results

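The vegetal section of trout hybrid embryos was compared between 3 days post fertilization (dpf) and 0 hours post fertilization (hpf), over the genes of the egg's species. The embryos came from rainbow trout (Oncorhynchus mykiss) eggs fertilized with brook trout (Salvelinus fontinalis) sperm, and each was cut across its animal-vegetal axis into section A, the animal part, and section B, the vegetal part. The 3 dpf group (mid-blastula, about 1000 cells) and the 0 hpf group had 2 section B libraries each, 4 of the 20 libraries in the count table. The labels call the 0 hpf samples both non-fertilized and freshly fertilized eggs, so whether sperm had entered is not settled by them. Section B libraries from 1 hpf (called both 1-cell and early cleavage) and from 1 dpf (32 to 64 cells), 3 each, were used to place a change in time, and section A libraries of the same eggs and embryos to place it in space. Of 22773 O. mykiss genes in the table, 22724 passed the filter on low counts and were tested; the sperm's species was tested with them, and edgeR called 0 of its 9778 tested genes in section B between 3 dpf and 0 hpf at an adjusted p under 0.05. Of these genes 491 had an unadjusted p under 0.05, and DESeq2 called 46.

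An egg is loaded with messenger RNA by the mother, and the early embryo runs on that store until its own genome is switched on at about the blastula stage. In fish the cells form as a cap at the animal pole, while the vegetal part is mostly yolk, with a thin layer of cytoplasm that holds localized RNAs for axis formation and for germ cells. Such localized RNAs are carried to or held at the vegetal pole, and some later travel along microtubules toward the cells. In bulk sections, RNA that is lost, made or moved cannot be told apart, and neither can fewer cells of a type and less RNA per cell.

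The label of the section was checked against RNAs known from fish and frog eggs to lie at the vegetal pole. At 3 dpf, grip2b (LOC110492486), trim36 (LOC110525254) and huluwa (hwa), which acts in axis formation, were higher in section B than in section A (edgeR adjusted p under 0.05), with log2 fold changes of 4.12, 4.16 and 4.52. At 0 hpf the same genes gave 3.71, 3.54 and 3.75. All 15 tested copies of grip2b, trim36, sybu, dazl, hwa, buc and celf1 had values above 0 at both stages, from 0.81 to 4.52 at 3 dpf and from 0.38 to 3.75 at 0 hpf. Among genes of the enveloping layer, the outer sheet of embryonic cells, krt5 (LOC110528490 and e1) and cldne (LOC110507726) had 0 reads in both 3 dpf section B libraries, whereas the krt8 counterpart s1 had 10 and 24 reads at 3 dpf, against 57 and 44 at 0 hpf. The enveloping layer regulator grhl3 was counted as well. Its copy LOC110498393 had 29 and 61 reads at 3 dpf, against 66 and 97 at 0 hpf. The copy named grhl3 had 20 and 3 reads, against 4 and 7. With library size scaled, s1 and both grhl3 copies were not called (log2 fold changes −0.94, −0.18 and 1.77). Of the zygotic genes vox, vent and her5, 0 reads were counted in section B at 3 dpf. The genes nanog and pou5f3, taken as markers of the same kind, were counted there at both stages. The copy named nanog had 2321 and 1643 reads at 3 dpf, against 2595 and 3841 at 0 hpf, in libraries of unequal size. With library size scaled its log2 fold change was 0.01, and that of the copy LOC110535236 was 1.05 (edgeR adjusted p = 0.665). The copy named pou5f3 had 1854 and 1390 reads at 3 dpf, against 2321 and 3829 at 0 hpf. Its scaled log2 fold change was −0.20 (edgeR adjusted p = 0.744), and that of the copy LOC110523509 was 0.16, also not called.

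The 10 section B libraries did not form the 4 stages when clustered by their O. mykiss levels. They formed 3 sets, with correlations of 0.952 to 0.981 within a set and 0.886 to 0.921 between sets. Set 1 held both 0 hpf libraries, replicate 3 of 1 dpf and replicate 2 of 3 dpf. Set 2 held replicate 1 of 1 hpf, replicates 1 and 2 of 1 dpf and replicate 1 of 3 dpf, and set 3 the other 2 libraries of 1 hpf. The labels do not say what the sets are. They bear on every result here, because both 0 hpf libraries belong to set 1 and the 3 dpf libraries to sets 1 and 2. Values within set 1 (3 dpf replicate 2 against 0 hpf) are given for the groups of called genes. The libraries of these values also chose the called genes, so the sign of the values followed from the choice. Counts from a fit with the set as a block are given for the calls and for the gene lists with called members. The step from 0 hpf to 1 hpf has no set in common and cannot be told apart from the sets.

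Few genes passed the test in the vegetal section. At an adjusted p under 0.05 (edgeR, over all 32502 tested genes of both species), 31 O. mykiss genes were higher at 3 dpf than at 0 hpf and 32 were lower, 0.136% and 0.141% of those tested. All 63 were protein coding, as were 22210 of the 22724 tested O. mykiss genes. In each of the 63 the 3 dpf libraries lay outside the range of the 0 hpf libraries. That was also true of 4351 genes toward higher (19.1%) and 5143 toward lower (22.6%) among all tested. The largest adjusted p among the 63 was 0.0492 and the smallest among the rest 0.0507. With the library set as a block, 256 genes were higher and 225 lower (1.13% and 0.99%), and these included 30 of the 31 and all 32. The sets were found in the levels of these same libraries, so the fit with the block is no independent check of the calls. The numbers depend on single libraries: without 3 dpf replicate 2 there were 317 higher and 341 lower, without 3 dpf replicate 1 there were 0 and 3, without 0 hpf replicate 2 there were 0 and 2, and without 0 hpf replicate 1 there were 7 and 35. DESeq2 called 716 and 405. A fit on the section B libraries alone called 0 higher and 1 lower, and a fit on the compared libraries alone called 0 and 0. Apart from that 1 gene, the calls thus rest on a spread estimated with section A libraries included. At an unadjusted p under 0.05 by edgeR there were 3041 of the 22724 tested O. mykiss genes, in either direction.

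**Figure D1:**
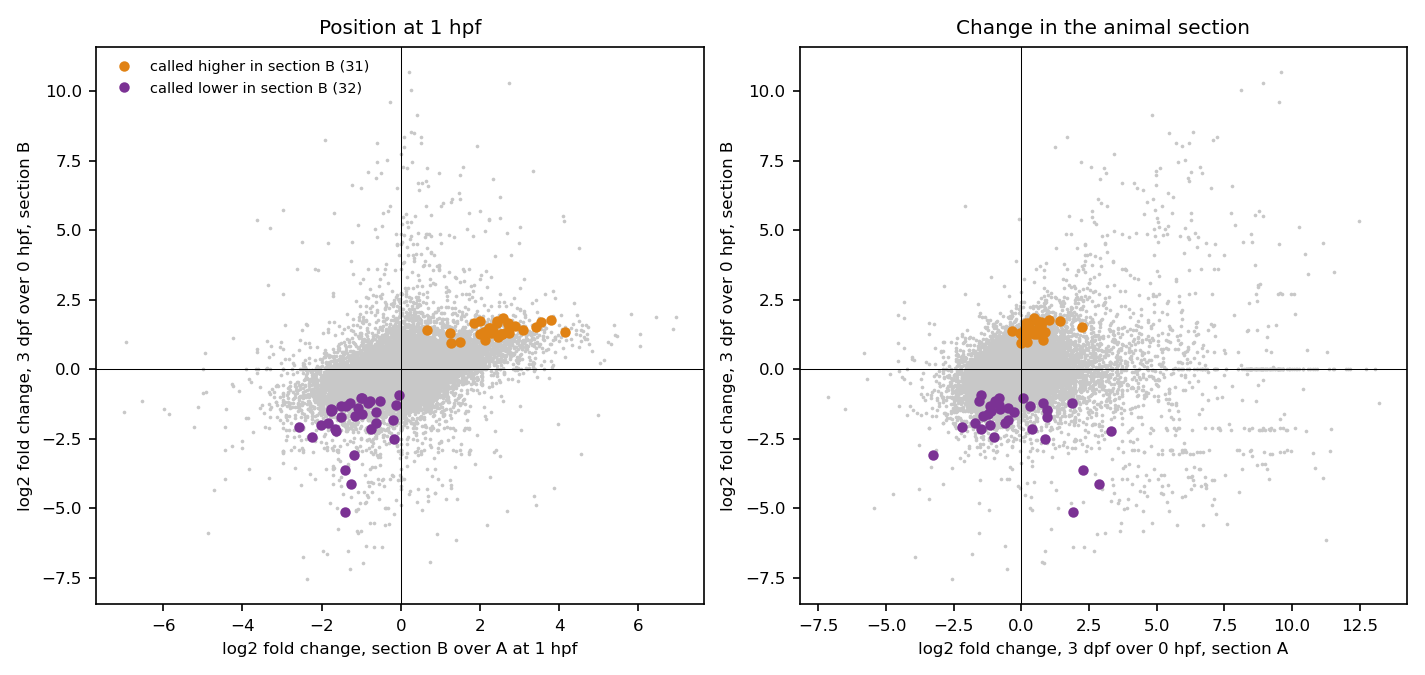
Each point is an O. mykiss gene; the vertical axis is its log2 fold change in section B, 3 dpf over 0 hpf. The horizontal axis is its section B over section A log2 fold change at 1 hpf (left) or its 3 dpf over 0 hpf log2 fold change in section A (right). The 31 genes called higher lie right of 0 in the left panel, and of the 32 called lower all lie left of 0.

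The genes that were higher at 3 dpf were abundant RNAs, and most of them lay on the vegetal side in the egg and all of them at 1 hpf. Their median level in the 1 hpf and 1 dpf section B libraries was 330.0 CPM (a gene's share of its library's counts, with the library total scaled by TMM factors), against 16.6 CPM over all tested genes and 20.3 CPM for the genes that were lower. At 1 hpf, in libraries outside the comparison, 31 of the 31 were higher in section B than in section A (edgeR adjusted p under 0.05), against 11.9% of all tested genes. At 0 hpf, whose section B libraries are part of the comparison, 26 of the 31 were (3.98% of all tested genes); the others included both pik3cb copies and trip11. Their median log2 fold change between 3 dpf and 0 hpf was 1.38 (range 0.93 to 1.83) in section B and 0.48 in section A. Within set 1 the median in section B was 1.11, from libraries that also chose the genes. In section A 13 of the 31 were called higher too and 0 lower, against 9.92% and 19.7% of all tested genes. By the test of the difference, 13 of the 31 had the higher change in section B and 0 the lower, against 8.32% and 4.44% of all tested genes. That test contains the section B change by which the 31 were chosen. Its lean to higher, here and for single genes below, is no independent result. Both pairs of background shares depend on the scaling, and their order reversed with O. mykiss genes alone for scaling. Of all 22724, the section A test then called 3397 up and 2250 down, and the difference test 825 above and 1417 below. Counts for the 31 under that scaling are not given here.

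The Wnt pathway tells the embryo where its back will form, and axin1 encodes the scaffold on which beta-catenin is marked for destruction. The axin1 copy LOC110485340 had 298 and 234 CPM in the 3 dpf libraries, against 85.0 and 70.8 CPM in the 0 hpf libraries. Its log2 fold change was 1.77 ± 0.30 (SE, n = 2 each; edgeR adjusted p = 0.0167). The copy LOC110512102 had 267 and 186 CPM at 3 dpf, against 75.4 and 63.9 CPM at 0 hpf, a log2 fold change of 1.70 ± 0.28 (edgeR adjusted p = 0.0132). Both copies were at least 2 times as high in each 3 dpf library as in either 0 hpf library. In section A both were also higher at 3 dpf, with log2 fold changes of 1.02 and 0.72 (edgeR adjusted p = 0.0126 and 0.0495). The change was not shown to differ between sections (edgeR adjusted p of the difference 0.268 and 0.0993). The third copy, LOC110538248, was at 13.1 and 17.2 CPM at 3 dpf, against 16.8 and 18.3 CPM at 0 hpf, and did not pass (log2 fold change −0.21 ± 0.31; edgeR adjusted p = 0.904). Salmonids keep pairs of near-identical genes from a genome duplication, and reads shared between copies can be split or lost in counting, so the share of each copy is uncertain. Over the 64 tested genes of Wnt and beta-catenin signaling, these 2 were called higher and 0 lower, against 3 and 2 with the set as a block and 6 and 2 by DESeq2. The shares over all tested genes were 0.136% higher and 0.141% lower, and 1.13% and 0.99% with the block. DESeq2 called 716 higher and 405 lower of all 22724. The list's median log2 fold change was 0.25, against −0.03 over all tested genes.

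Both copies of srcap, the motor subunit of the complex that places the histone variant H2A.Z in chromatin, were higher as well. LOC110499140 had 2022 and 1537 CPM at 3 dpf, against 453 and 628 CPM at 0 hpf (log2 fold change 1.72 ± 0.25; edgeR adjusted p = 0.00824). The other copy, annotated as srcap, had 1113 and 1101 CPM at 3 dpf, against 364 and 408.5 CPM at 0 hpf (log2 fold change 1.52 ± 0.26; edgeR adjusted p = 0.0156). The groups did not overlap in either copy. Both copies were also higher at 3 dpf in section A, with log2 fold changes of 1.44 and 2.23 (edgeR adjusted p = 0.000258 and 7.77e-06), and the change was not shown to differ between sections (edgeR adjusted p of the difference 0.722 and 0.192). Of 177 chromatin and DNA methylation regulators these 2 were called higher and 0 lower, against 9 and 0 with the set as a block and 13 and 0 by DESeq2. Over all tested genes 0.136% were higher, and 1.13% with the block, and DESeq2 called 716 of 22724 higher. The list's median was −0.01 (0.06 with the block).

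The catalytic p110 beta subunit of phosphoinositide 3-kinase, pik3cb, was the third gene with more than 1 copy called, and again both rose. LOC110507192 had 121 and 110.1 CPM at 3 dpf, against 28.9 and 44.5 CPM at 0 hpf (log2 fold change 1.66 ± 0.30; edgeR adjusted p = 0.0283). LOC110503149 had 483 and 311 CPM at 3 dpf, against 118 and 179.9 CPM at 0 hpf (log2 fold change 1.41 ± 0.24; edgeR adjusted p = 0.014). The copy LOC110503149 lay close to evenly between the sections in the egg, with a section B over A log2 fold change of −0.24 at 0 hpf. In section A neither copy passed the test (log2 fold changes 0.18 and 0.44), and the section B change exceeded the section A change by 1.47 and 0.97 (edgeR adjusted p of the difference 0.0255 and 0.0485). Over all tested genes the median of this difference was 0.28, and −0.01 with O. mykiss genes alone for scaling. The differences of the pik3cb copies and of usp24 (below) were not checked under that scaling.

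The other named genes that were higher act in several places in the cell. The ubiquitin protease gene usp24 had 1144 and 788 CPM at 3 dpf, against 247 and 334 CPM at 0 hpf, a log2 fold change of 1.73 ± 0.23 (edgeR adjusted p = 0.00718). Its second copy, usp24 (LOC110524519), had 52.8 and 81.5 CPM at 3 dpf, against 58.2 and 76.6 CPM at 0 hpf, and the groups overlapped. The highest log2 fold change of the 31 was that of tbc1d2b, a gene of the family of Rab GTPase activators, at 1.83 ± 0.36 (edgeR adjusted p = 0.0431). It had 346 and 214 CPM at 3 dpf, against 66.2 and 91.8 CPM at 0 hpf; with the set as a block its edgeR adjusted p was 0.0518, the 1 gene of the 31 that did not pass there. Another member of that family, tbc1d14 (LOC110500746), a regulator of autophagy in mammals, gave 1.27 ± 0.20 (edgeR adjusted p = 0.0132). The vesicle tethering gene tgfbrap1 (LOC110527158) had 129 and 101 CPM at 3 dpf, against 41.0 and 31.3 CPM at 0 hpf (log2 fold change 1.67 ± 0.23; edgeR adjusted p = 0.00718). In section A it and the copy named usp24 were also higher at 3 dpf, by 0.72 and 0.59 (log2, edgeR adjusted p = 0.0218 and 0.0399). The section B change exceeded that in section A by 1.14 for usp24 (edgeR adjusted p of the difference 0.0214). For tgfbrap1 it was not shown to differ (edgeR adjusted p of the difference 0.0598). Changes in tbc1d2b and tbc1d14 did not pass in section A (0.48 and 0.22).

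The golgin gene trip11 gave 1.49 ± 0.27, and tfg (LOC110520510), which acts where vesicles leave the endoplasmic reticulum, gave 1.32 ± 0.24 (edgeR adjusted p = 0.0265 for both). The cytoskeletal cross-linker gene specc1lb (LOC110523516) gave 1.65 ± 0.33, and atxn1l (LOC110506529), a partner of a transcriptional repressor, gave 1.55 ± 0.31 (edgeR adjusted p = 0.0473 for both). In each of these 4 genes replicate 1 was the higher 3 dpf library, as in 541 and 322 CPM for specc1lb at 3 dpf, against 126 and 149 CPM at 0 hpf. The copy named specc1lb was not called (log2 fold change 0.17, edgeR adjusted p = 0.903). In section A, changes in trip11, specc1lb (LOC110523516) and atxn1l did not pass the test (log2 fold changes 0.15, 0.27 and 0.71). There tfg was higher at 3 dpf, with a log2 fold change of 0.84 (edgeR adjusted p = 0.0113). Its change was not shown to differ between sections (edgeR adjusted p of the difference 0.413).

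**Figure D2:**
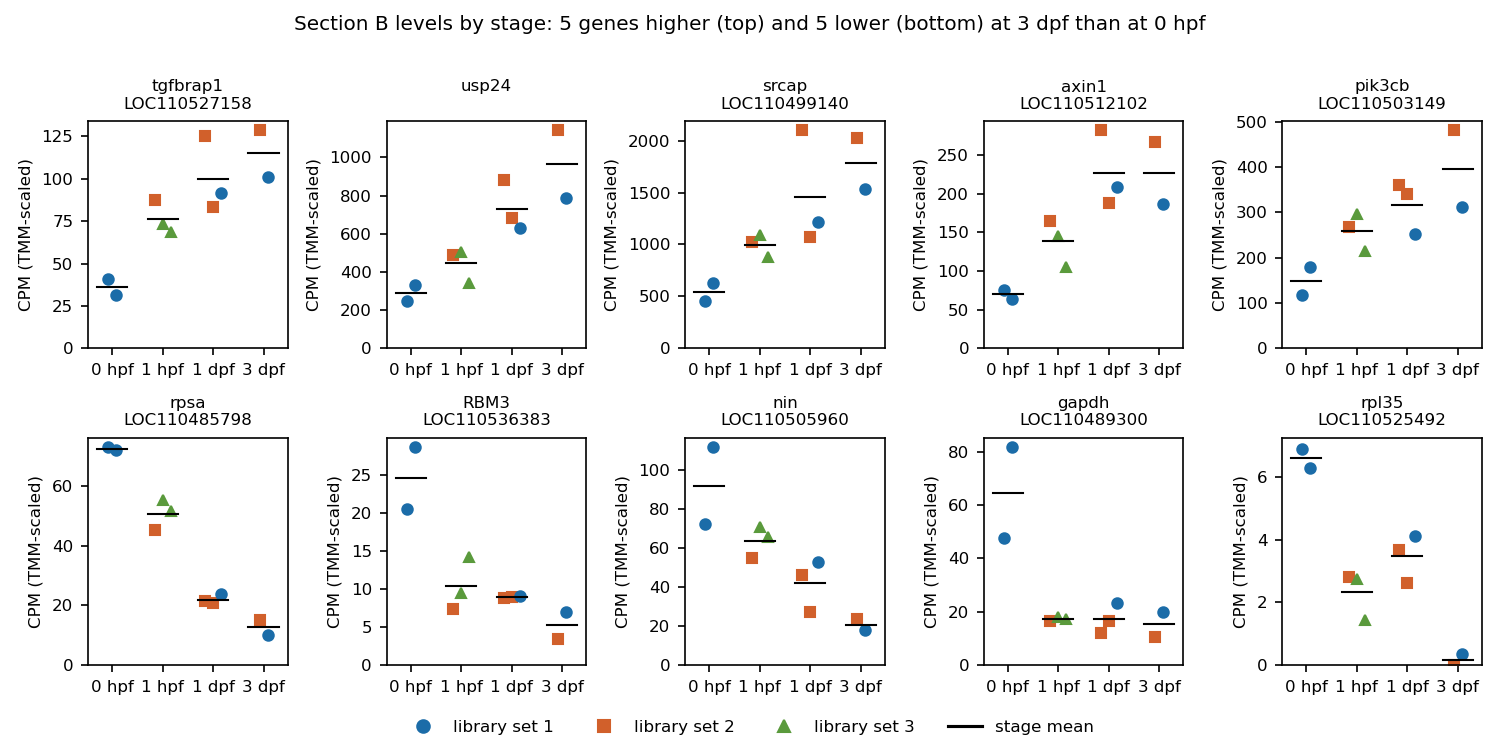
TMM-scaled CPM (vertical axes, linear, from 0) in the 10 section B libraries by stage, for 5 of the genes higher and 5 of the genes lower at 3 dpf, those with the smallest adjusted p among the genes named for size. Points are libraries, coloured by library set, and bars are stage means; rpsa lies at 15.1 and 9.99 CPM at 3 dpf, against 72.9 and 71.9 CPM at 0 hpf, with the other stages between.

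The gene with the smallest adjusted p in section B was rpsa (LOC110485798), which encodes a protein of the small ribosomal subunit also known as a laminin receptor. It had 15.1 and 9.99 CPM at 3 dpf, against 72.9 and 71.9 CPM at 0 hpf. At 1 hpf it had 45.2, 55.2 and 51.7 CPM and at 1 dpf 21.5, 20.6 and 23.6 CPM, so that no stage overlapped another and each was lower than the stage before. Its log2 fold change was −2.53 ± 0.23 (SE, n = 2 each; edgeR adjusted p = 5.97e-05), and the step between 1 dpf and 1 hpf alone, which shares no library with that comparison, passed too (−1.21; edgeR adjusted p = 0.0465). In section A the same copy was higher at 3 dpf, at 141 and 131 CPM, against 76.5 and 73.3 CPM at 0 hpf (log2 fold change 0.86; edgeR adjusted p = 0.00302). The other 2 copies did not pass in section B: LOC110493546 had 33.9 and 7.33 CPM at 3 dpf, against 35.9 and 37.4 CPM at 0 hpf, and LOC110538474 had 17.9 and 36.1 CPM, against 28.5 and 39.8 CPM.

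Ribosomal protein genes, whose products build the cytosolic ribosome, lay low at 3 dpf as a list. Of 159 tested, 5 were lower (edgeR adjusted p under 0.05) and 0 higher; 142 had a log2 fold change below 0, and the median was −1.13, against −0.03 over all tested genes (−1.12 with members at 0 in a whole group set to a floor of 3 counts). With the set as a block 24 were lower and 0 higher. Over all tested genes 0.141% were lower, and 0.99% with the block. Of all 22724 tested, 11824 had a log2 fold change below 0. Relative to the 0 hpf mean, the list's median lay at −1.55 and −0.83 (log2) in the 3 dpf libraries, against −0.11 and 0.11 in the 0 hpf libraries; it lay at −0.84, −0.56 and −0.70 at 1 hpf and at −1.05, −0.79 and −0.59 at 1 dpf. Replicate 2 of 3 dpf, in set 1 like the 0 hpf libraries, was thus lower than both of them, by less than replicate 1. The summed level of the list was 866 and 1145 CPM at 3 dpf, against 1597 and 1788 CPM at 0 hpf.

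Besides rpsa, the called members included rpl35, rpl13a and rps16, the last named after its values were seen. The rpl35 copy LOC110525492 had 0 and 2 reads in the 3 dpf libraries, against 55 and 66 reads in the 0 hpf libraries (edgeR adjusted p = 0.0104). The ratio of its summed counts, scaled by library size, was 0.0266 (95% exact interval 0.00318 to 0.0981, counting error only). The rps16 copy LOC110500001 had 3 reads in all at 3 dpf, against 89 at 0 hpf, a ratio of 0.0542 (95% exact interval 0.011 to 0.164, counting error only; edgeR adjusted p = 0.0436). In section A the rps16 copy averaged 38.7 ± 22.7 CPM at 3 dpf and 5.27 ± 0.525 CPM at 0 hpf (SD, n = 2 each). The rpl13a copy LOC110505289 had 0 and 0.999 CPM, 0 and 6 reads, at 3 dpf, against 6.28 and 6.85 CPM at 0 hpf (edgeR adjusted p = 0.0301). These genes have duplicates and pseudogenes that can share their reads, so the loss of a single copy is uncertain.

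The same list stood the other way round in the animal section. There its median log2 fold change between 3 dpf and 0 hpf was 1.94, and 117 of the 159 were higher and 0 lower (edgeR adjusted p under 0.05). Over all tested genes 29.6% changed in section A, 9.92% higher and 19.7% lower, with a median of −0.29. Section A at 3 dpf held many reads of the sperm's species, 24.0% and 22.4% of its counts, against 0.982% and 1.02% in section B, and scaling on O. mykiss genes alone turned that split to 3397 higher and 2250 lower with a median of 0.02. The ribosomal list's median in section A was then 2.26, with 127 higher and 0 lower. The change in section B was below that in section A for 114 of the 159 by the test of the difference and above it for 0; over all tested genes 8.32% were above and 4.44% below. The rpl13a copy LOC110505289 is an example, with 43.8 and 31.9 CPM in section A at 3 dpf, against 5.93 and 9.55 CPM at 0 hpf, and a difference of −5.92 between the changes in sections B and A (log2; edgeR adjusted p of the difference 0.000321). The rps6 gene (LOC100135859) had 91.3 and 63.6 CPM in section A at 3 dpf, against 9.81 and 10.3 CPM at 0 hpf, and in section B 1.28 and 2.5 CPM at 3 dpf, against 7.16 and 10.3 CPM at 0 hpf. It did not pass in section B alone (edgeR adjusted p = 0.0637), and the difference of its change there from that in section A was −5.14 (log2; edgeR adjusted p of the difference 9.7e-05).

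**Figure D3:**
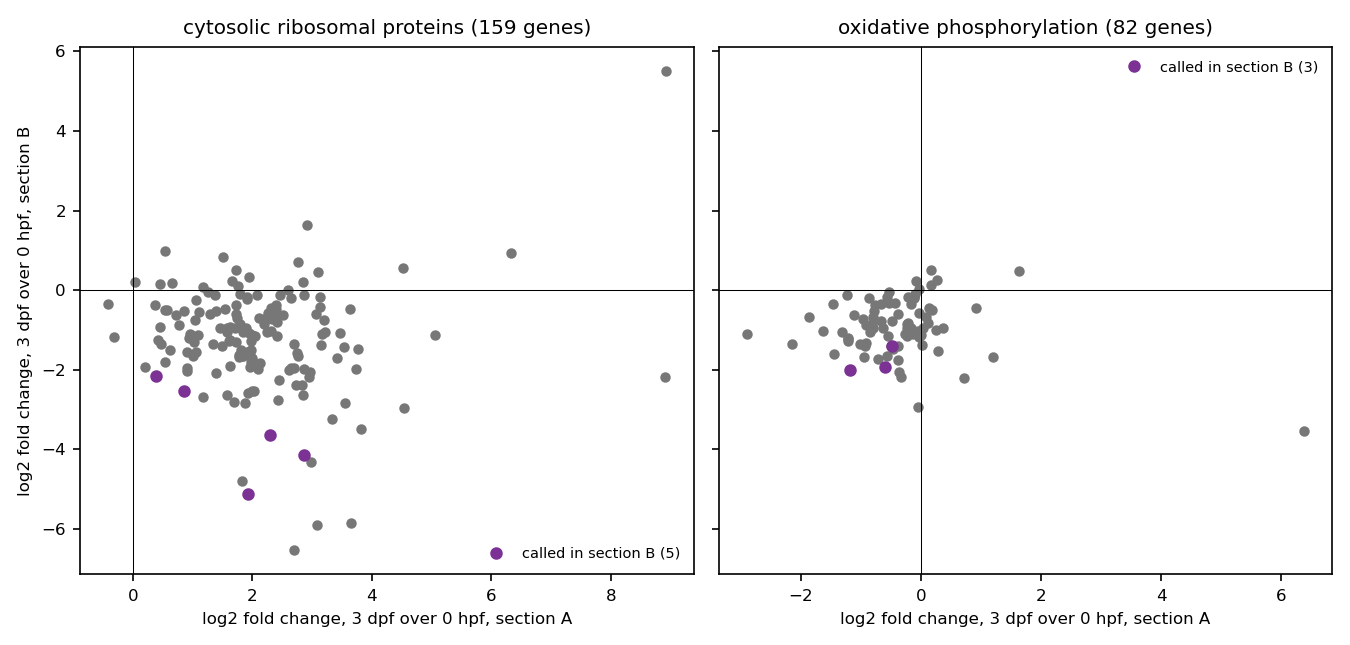
Log2 fold change, 3 dpf over 0 hpf, in section B (vertical) against section A (horizontal) for 159 ribosomal protein genes (left) and 82 oxidative phosphorylation genes (right); purple points are the 5 and the 3 genes called in section B. Most ribosomal protein genes lie below 0 in section B and above 0 in section A, and most oxidative phosphorylation genes lie below 0 in section B.

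Genes of oxidative phosphorylation, which make ATP in mitochondria, also lay low in the vegetal section at 3 dpf. Of 82 tested, 76 had a log2 fold change below 0, with a median of −0.95, and 3 were lower and 0 higher by edgeR (11 and 0 with the set as a block). Over all tested genes 0.141% were lower, 0.99% with the block, and 11824 of 22724 had a log2 fold change below 0. The ATP synthase genes atp5f1d and atp5f1c (LOC110490356) had log2 fold changes of −2.01 ± 0.40 and −1.40 ± 0.26 (edgeR adjusted p = 0.0473 and 0.031). The gene zgc:86599, which the deposited ortholog table pairs with cox5ba, a subunit of cytochrome c oxidase, had 11.5 and 8.83 CPM at 3 dpf, against 34.8 and 43.2 CPM at 0 hpf (log2 fold change −1.94 ± 0.30; edgeR adjusted p = 0.0109). The list's median lay at −1.19 and −0.53 (log2) in the 3 dpf libraries, against −0.17 and 0.17 in the 0 hpf libraries. At 1 hpf it lay at −0.68, −0.49 and −0.52, and at 1 dpf at −1.03, −0.59 and −0.39. Part of the change thus lay in the step from 0 hpf to 1 hpf, which cannot be told apart from the sets. In section A its median was −0.41, with 13 lower and 1 higher, against 19.7% and 9.92% of all tested genes. By the test of the difference 4 of the 82 had a section B change below that in section A, against 4.44% of all tested genes. With O. mykiss genes alone for scaling its median in section A was −0.10, with 4 lower and 1 higher, and 8 of the 82 had the lower change in section B. Over all 22724 tested genes that scaling gave 2250 lower and 3397 higher in section A, and 1417 with the lower change in section B.

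The proteasome, which degrades ubiquitin-marked proteins, and the chaperones, which fold new ones, had medians nearer 0. With the set as a block 2 proteasome genes and 6 chaperone genes were lower and 0 of either higher. Over all tested genes 0.141% were lower, and 0.99% with the block. Of all 22724 tested, 11824 lay below 0. Relative to the 0 hpf mean, the proteasome median lay at −0.38, −0.41 and −0.33 at 1 hpf, against −0.77 and −0.42 at 3 dpf. For the chaperones it lay at −0.43, −0.33 and −0.44 at 1 hpf, against −0.63 and −0.28 at 3 dpf. The step from 0 hpf to 1 hpf cannot be told apart from the sets. Of 65 proteasome genes 56 lay below 0, with a median of −0.50, and psmc3 (LOC110506332), an ATPase of the regulatory particle, fell to 15.7 and 23.3 CPM at 3 dpf, against 60.8 and 66.3 CPM at 0 hpf (log2 fold change −1.70 ± 0.24; edgeR adjusted p = 0.00718). The copy named psmc3 was not called, with 4.92 and 2.83 CPM at 3 dpf, against 4.27 and 4.09 CPM at 0 hpf (log2 fold change −0.11). Of 72 heat shock proteins and chaperones 47 lay below 0, with a median of −0.46, and the 2 called were both subunits of the TRiC chaperonin that folds actin and tubulin. The cct6a copy LOC110507714 had 8.38 and 10.8 CPM at 3 dpf, against 23.7 and 29.8 CPM at 0 hpf (log2 fold change −1.48 ± 0.23; edgeR adjusted p = 0.0132), and tcp1 had 24.4 and 34.5 CPM at 3 dpf, against 65.8 and 81.9 CPM at 0 hpf (−1.32 ± 0.24; edgeR adjusted p = 0.0265). The tubulin gene tubb5 (LOC110535859) was lower too, with −1.43 ± 0.28 (edgeR adjusted p = 0.0399). It was the 1 called of 109 genes of motors and cytoskeleton. With the set as a block 3 of the 109 were higher and 5 lower, against 1.13% and 0.99% of all tested genes. Other tubb5 copies were not called, such as LOC110504922 at −1.56 and LOC110485735 at −0.29 (log2).

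**Figure D4:**
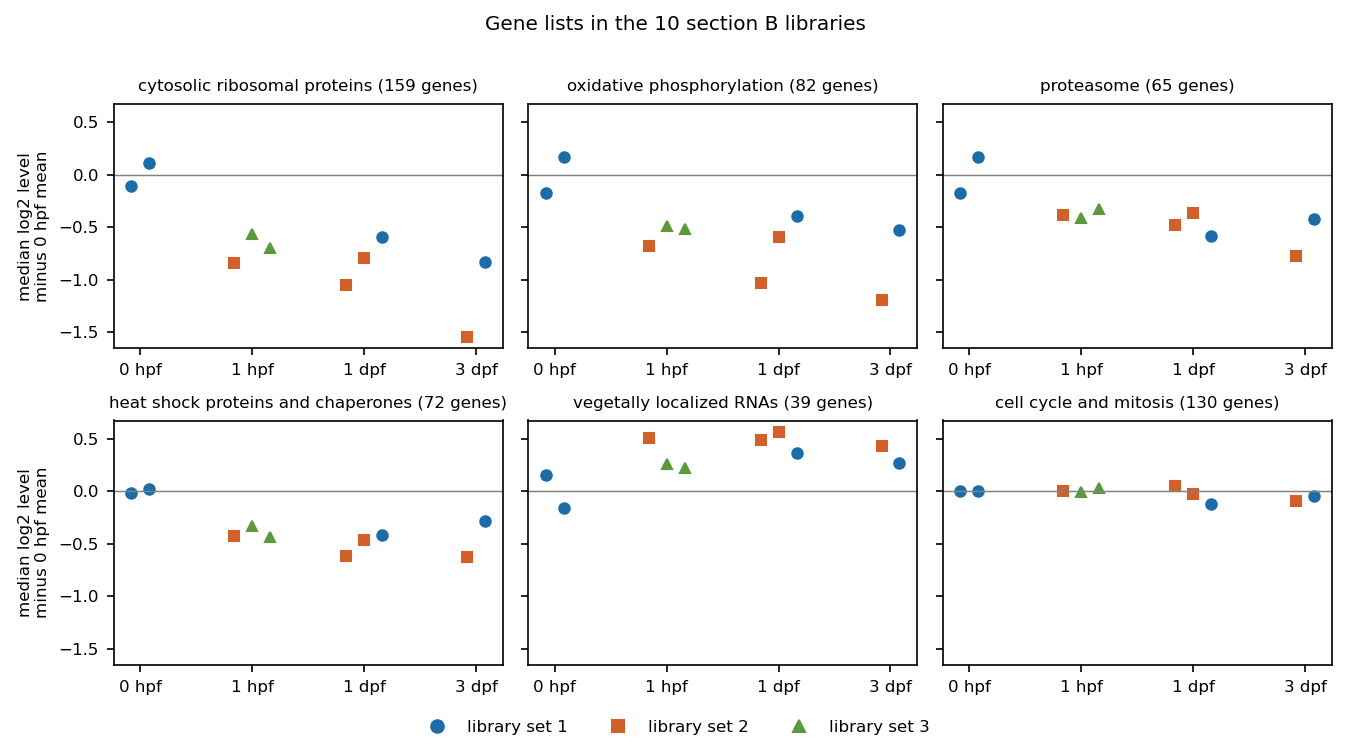
Median log2 level of 6 gene lists in each of the 10 section B libraries, minus the 0 hpf mean of each gene, by stage and coloured by library set. Ribosomal protein, oxidative phosphorylation, proteasome and chaperone genes lie below 0 in both 3 dpf libraries, vegetally localized RNAs above 0, and cell cycle genes at −0.09 and −0.04.

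The remaining named genes that were lower have varied roles. The glycolytic gene gapdh (LOC110489300) had 10.6 and 19.8 CPM at 3 dpf, against 47.5 and 81.6 CPM at 0 hpf (log2 fold change −2.08 ± 0.31; edgeR adjusted p = 0.00824). At 1 hpf it had 16.4, 17.8 and 17.1 CPM, inside the range of the 3 dpf libraries. The peroxiredoxin gene prdx2 (LOC110485699), which removes peroxides, had 4.01 and 7.83 CPM at 3 dpf, against 18.8 and 45.2 CPM at 0 hpf (−2.43 ± 0.38; edgeR adjusted p = 0.0125). The centrosomal gene nin (LOC110505960), for ninein, which anchors microtubules, had 23.5 and 17.8 CPM, against 72.2 and 112 CPM (−2.16 ± 0.30; edgeR adjusted p = 0.00718). The groups did not overlap in any of the 3. Other tested copies were not called: gapdh (LOC110496191) and the copy named gapdh gave −2.07 and −1.58 (log2). The copy prdx2 (LOC110493450) gave −0.54 and the copy named nin −0.39. Of 33 stress response and immediate early genes prdx2 (LOC110485699) was the 1 called, and the list's median was −0.18. With the set as a block 0 of the 33 were higher and 2 lower, against 1.13% and 0.99% of all tested genes.

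The cold-inducible RNA binding gene RBM3 (LOC110536383) had 3.46 and 7.0 CPM in section B at 3 dpf, against 20.6 and 28.7 CPM at 0 hpf (log2 fold change −2.23 ± 0.32; edgeR adjusted p = 0.00718). In section A it had 388 and 340.4 CPM at 3 dpf, against 39.2 and 34.1 CPM at 0 hpf, and the difference between the changes in sections B and A was −5.54 (log2; edgeR adjusted p of the difference 1.47e-06). The RBM3 copies LOC110507674 and LOC110524260 were not called in section B, with log2 fold changes of 0.27 and 0.45. The splicing factor gene crnkl1 gave −1.83 ± 0.33 and the histone methyltransferase gene kmt5c (LOC110538619) −1.49 ± 0.24 (edgeR adjusted p = 0.0265 and 0.0132). Of 117 spliceosome genes crnkl1 was the 1 called, and the list's median was −0.07. With the set as a block 0 of the 117 were higher and 2 lower, against 1.13% and 0.99% of all tested genes. The gene zgc:136971, of no stated function in the files, gave −1.93 ± 0.31 (edgeR adjusted p = 0.0132).

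Whether a change was gradual was read from the 1 hpf and 1 dpf libraries, which are not in the contrast that chose the 63 genes but entered the same fit and its estimate of the spread. Of the 31 higher genes, 30 were also higher at 1 dpf than at 1 hpf, with a median log2 fold change of 0.38, against 0.01 over all tested genes, of which 11577 of 22724 were above 0. Of the 32 lower genes, 25 were lower at 1 dpf than at 1 hpf, with a median of −0.22, against 11033 of 22724 tested genes below 0. By 1 hpf the higher genes had covered a median of 61.0% of their log2 change and by 1 dpf 85.7%; the lower genes had covered 36.4% and 54.3%. These shares are read against the same 0 hpf and 3 dpf libraries that chose the genes. Within set 2, which has no 0 hpf library, the medians between 1 dpf and 1 hpf were 0.25 (28 of 31 above 0) and −0.25 (23 of 32 below 0). Over all tested genes that median was −0.01.

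Few genes passed the edgeR test in a single step, and the count depended on the tool. Between 1 hpf and 0 hpf, gapdh (LOC110489300) was lower (log2 fold change −1.91; edgeR adjusted p = 0.0279), 1 gene of those tested or 0.0044%, and 3945 had an unadjusted p under 0.05; DESeq2 called 1256, the replicate block 837 and a fit on these groups alone 780, in a step that cannot be told apart from the library sets. Between 1 dpf and 1 hpf, rpsa (above) and spdl1 (LOC110513958), a gene of chromosome attachment to the spindle, were lower, 0.0088% of those tested, and DESeq2 called 87. The spdl1 copy, named after its values were seen, had 5.99, 5.26 and 6.12 CPM at 1 dpf, against 16.7, 18.6 and 17.9 CPM at 1 hpf (−1.61; edgeR adjusted p = 0.0465), and at 3 dpf it had 10.6 and 11.8 CPM. Between 3 dpf and 1 dpf, edgeR called 0 genes in either direction (0.0%), with 1371 at an unadjusted p under 0.05 and 74 by DESeq2.

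Genes were also grouped by where they lay at 1 hpf, in libraries outside the comparison. The 608 genes that were higher in section B than in section A by a log2 fold change over 2 had a median log2 fold change of 0.89 in section B between 3 dpf and 0 hpf, and 581 were above 0; 24 of the 31 higher genes were among them. Their median within set 1 was 0.64, and in section A 0.49. The 310 genes that were higher in section A by the same margin had a median of −0.96, and 286 were below 0, with 3 called lower. Relative to the 0 hpf mean, their level lay at −1.50 and −0.42 in the 3 dpf libraries, against −0.49 and 0.49 in the 0 hpf libraries, so that 3 dpf replicate 2 lay inside the range of the 0 hpf libraries. Of the 32 lower genes, 24 were lower in section B than in section A at 1 hpf (edgeR adjusted p under 0.05, as were 12.5% of all tested genes) and 0 were higher. At 0 hpf, whose section B libraries are part of the comparison, 6 of the 32 were lower and 0 higher. Their median section B over A log2 fold change there was −0.55. Over all 22724 tested genes 329 were lower and 905 higher in section B at 0 hpf. The median log2 fold change of the 32 between 3 dpf and 0 hpf was −1.66 in section B and −1.45 within set 1. All 32 were below 0 within set 1, which followed from both 3 dpf libraries lying below the 0 hpf range. In section A their median was −0.69, with 16 called lower and 9 higher, against 19.7% and 9.92% of all tested genes. The order of these 2 background shares reversed with O. mykiss genes alone for scaling, which called 2250 down and 3397 up of the 22724. Counts for the 32 under that scaling are not given here.

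Among vegetally localized RNAs, of which grip2b, trim36 and dazl are known to gather at the vegetal pole or in germ plasm, none passed the test. Of 39 tested, 31 had a log2 fold change above 0 and the median was 0.42; edgeR called 0, with 12 higher and 1 lower at an unadjusted p under 0.05, and DESeq2 called 7 higher and 0 lower. Over all 22724 tested genes, 3041 had an unadjusted p under 0.05 in either direction, and DESeq2 called 716 higher and 405 lower. The scaffold gene grip2b (LOC110492486) had 1233 and 895 CPM at 3 dpf, against 362 and 384 CPM at 0 hpf (log2 fold change 1.51 ± 0.51; edgeR adjusted p = 0.248). The ubiquitin ligase gene trim36 (LOC110525254) had 2404 and 1732 CPM, against 847 and 758 CPM (1.37 ± 0.45; edgeR adjusted p = 0.242), and the germ plasm gene dazl 197 and 115 CPM, against 87.4 and 62.8 CPM (1.05 ± 0.33; edgeR adjusted p = 0.209). The groups of these 3 genes did not overlap, as in 20 of the 39 toward higher (19.1% of all tested genes). The other copies trim36 (LOC110535019) and dazl (LOC110487980) gave log2 fold changes of 0.84 and 0.93. The other grip2b copy, LOC110531951, lay near 0, with 6.38 and 13.3 CPM at 3 dpf, against 10.5 and 9.04 CPM at 0 hpf (log2 fold change 0.01). Of buc, LOC110489830 gave 0.03, LOC110535186 gave 0.18 and the copy named buc 0.52.

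Genes of the first zygotic transcription were high in section A at 3 dpf and were not called in section B. Of 73 early zygotic transcription factors and targets, edgeR called 0 in section B (2 higher and 2 lower at an unadjusted p under 0.05; DESeq2 called 1 higher and 0 lower) and the median was 0.00 (0.20 without the 22 members at 3 counts or fewer in both groups and with 4 members at 0 in a whole group set to a floor of 3 counts). Over all 22724 tested genes, 3041 had an unadjusted p under 0.05 in section B, in either direction. The list's median in section A was 3.72. The homeobox gene vent, a ventral repressor, had 73.3 and 104 CPM in section A at 3 dpf and 0 reads in both section B libraries, against 1 read in each section B library at 0 hpf. Of genes with 0 reads in all section B libraries of 0 hpf and 1 hpf, 0 had 5 or more in each 3 dpf library. In the reverse direction, 2 genes with at least 5 reads in each 0 hpf and 1 hpf library had 0 in both 3 dpf libraries: a copy of cdk5 (LOC110530478), with 9 and 16 reads at 0 hpf, and LOC110502095, with 7 and 18; they were named after their values were seen.

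The genes named for the largest differences between the sections fell on both sides. Those with the lower change in section B were vent, rpl13a, RBM3 and rps6 (all above) and rpl35 (LOC110525492), with a difference of −7.05 (log2; edgeR adjusted p of the difference 0.00015). Those with the higher change in section B were wdr37 (LOC110508774), homer3b (LOC110492105), cdca7b (LOC110487913), rit1 (LOC110488274) and the transcription factor gene runx3, with differences of 2.33 to 2.67. Their log2 fold changes in section B were 0.31 to 0.58, none past the test, and in section A −2.35 to −1.75, all past it (largest edgeR adjusted p 0.000187). For runx3, section B held 79.8 and 70.8 CPM at 3 dpf, against 48.5 and 52.0 CPM at 0 hpf, and section A 13.4 and 16.6 CPM at 3 dpf, against 49.9 and 50.5 CPM at 0 hpf. In all, 1890 genes had a section B change above that in section A and 1009 below (12.8% in either direction), with a median difference of 0.28 over all tested genes. With O. mykiss genes alone for scaling the split was 825 and 1417 and the median −0.01, with RLE factors the split was 926 and 1341, and DESeq2 gave 1519 and 1945, so which side held more genes turned with the scaling and the tool.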

How the data were processed

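The authors deposited a table of read counts per gene for both parent species, whole numbers that were not normalized; the submitters' processing notes list HTSeq 2.0.4, STAR 2.7.11, DESeq2 and fastp 0.23.4 without their order or settings. Genome builds and the strand setting are not given in the sources used here. Per the labels' protocols, 70 ng of total RNA, precipitated with lithium chloride because yolk holds inhibitors, was depleted of ribosomal RNA with a kit for human, mouse and rat. Total counts per section B library were 6216107 and 6264179 at 3 dpf, 7634250 and 9986001 at 0 hpf, 8614708 to 9628963 at 1 hpf and 5605030 to 8294788 at 1 dpf; 4 of 24 labelled libraries were not analysed here. Counts have no molecular identifiers, so intervals cover counting error only, and levels in CPM are not per length and are compared within a gene.

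All 20 libraries entered 1 edgeR 4.0.16 quasi-likelihood fit (R 4.3.3, robust, TMM factors, filterByExpr) with a mean per stage and section. The p-values were adjusted by Benjamini-Hochberg over 32502 genes. The difference between sections is an interaction contrast of that fit. Sections A and B of the same egg or embryo entered as separate libraries without a term for the egg. Tests between sections therefore did not use that pairing. Nothing says that replicates came from separate females or crosses, so p-values measure only the spread between these samples. Levels are TMM-scaled CPM and log2 levels use a pseudocount of 0.1 CPM. Symbols are the identifiers' own (6423 genes) or zebrafish names from the deposited ortholog table (7079); 2 zebrafish names shared by 3 or more differently named trout genes were not used. Named genes are the 12 largest changes in each direction among called genes with a symbol, a log CPM at or above the median of 2.97 and no overlap between groups, up to 3 called members per gene list and direction, the called genes with the smallest p between 1 dpf and 1 hpf (5 per direction), the 5 largest differences between sections in each direction and the gene called between 1 hpf and 0 hpf. Of these, 1 gene is not reported here. Members and lists were chosen with earlier results of these data known. The sets of libraries were found by average-linkage clustering of correlations, after the data were seen; the section A libraries of the 8 eggs in sets 1 and 2 matched the same sets. The fit was tested on simulated counts. Alternatives were RLE factors, library totals, scaling on O. mykiss genes, no filter, DESeq2 1.42.0, fits on section B or on the groups compared alone, blocks for replicate number and for library set, and leaving out each library.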

Additional observations from a re-analysis of the deposited data

Results flagged for a closer look

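The change between 3 dpf and 0 hpf differed between section B and section A, by the interaction test, for 1890 genes with a higher and 1009 with a lower value in section B (edgeR adjusted p under 0.05). The split turned round with O. mykiss genes alone for scaling (825 and 1417, median −0.01) and with RLE factors (926 and 1341). Among named genes the log2 change in section B minus that in section A was −7.05 for rpl35 (LOC110525492), −5.92 for rpl13a (LOC110505289), −5.54 for RBM3 (LOC110536383), −5.14 for rps6 (LOC100135859), −3.39 for rpsa (LOC110485798), −2.41 for cct6a (LOC110507714), −1.62 for tcp1, −1.35 for zgc:86599 and −1.33 for crnkl1. It was 2.67 for wdr37 (LOC110508774), 2.62 for homer3b (LOC110492105), 2.43 for rit1 (LOC110488274), 2.35 for cdca7b (LOC110487913) and 2.33 for runx3. Among the genes called higher in section B it was 1.47 and 0.97 for the pik3cb copies LOC110507192 and LOC110503149, 1.38 for specc1lb (LOC110523516), 1.34 for trip11, 1.14 for usp24 and 1.06 for tbc1d14 (LOC110500746). For genes called in section B, in either direction, the difference contains the change that chose them. The median of this difference over all tested genes was 0.28, and section A at 3 dpf held 24.0% and 22.4% S. fontinalis counts; the part of those counts in single genes' values was not tested.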

How the results depend on the processing

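Between 3 dpf and 0 hpf in section B (31 higher, 32 lower), DESeq2 called 716 and 405, a fit on section B alone 0 and 1, a fit on the 4 libraries compared 0 and 0, and library totals 66 lower; leaving out 1 library gave 0 to 317 higher and 2 to 341 lower. The 1 gene of the section B fit was rpsa (LOC110485798), which passed under 12 of 13 alternatives, the exception being the fit on the 4 libraries alone (edgeR adjusted p = 0.316). Same-numbered samples deviated together weakly (r = 0.15 over 22724 genes, 2 pairs), so the numbers were not taken to pair eggs; with the replicate number as a block there were 200 higher and 130 lower, and with the library set as a block, added after seeing the data, 256 and 225. Between 1 hpf and 0 hpf (1 gene), DESeq2 gave 1256, section B alone 0, the groups alone 780, the replicate block 837, the set block 0 and leaving out a library 0 to 24. Between 1 dpf and 1 hpf (2 genes), the values were 0 with RLE factors, 87 with DESeq2, 0 with section B alone or the groups alone, and 0 to 134 without 1 library; between 3 dpf and 1 dpf (0 genes), 74 with DESeq2 and 0 to 2. For the difference between sections (1890 and 1009), the side with more genes turned to the lower one with RLE factors (926 and 1341), O. mykiss scaling (825 and 1417) and DESeq2 (1519 and 1945); the groups alone gave 1041 and 963, the set block 3723 and 1730, and leaving out a library 1018 to 1971 and 500 to 1156. At a minimum of 3 reads, 1 gene was first counted by 3 dpf and 13 were no longer counted; at 10 reads, 0 and 0. With library totals the median of all tested genes moved to −0.21 in section B. With 2 libraries a group, of 6216107 and 6264179 counts at 3 dpf, changes of low genes were poorly resolved.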

Other observations

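The yolk syncytial gene mxtx2 was lower in section B libraries of set 1 than in those of the other sets, at every stage that had both. It had 352 and 41 reads at 3 dpf, against 48 and 75 at 0 hpf, with 562, 377 and 462 at 1 hpf and 461, 716 and 44 at 1 dpf; the 4 libraries at 41 to 75 reads are those of set 1. Its fitted change between 3 dpf and 0 hpf did not pass the test (log2 fold change 2.42; edgeR adjusted p = 0.469). The gene was looked up as a marker of the yolk syncytial layer.

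Among lists without a called gene, cell cycle and mitosis (130 genes) had a median log2 fold change of −0.06, solute carriers (232 genes) 0.03, mRNA deadenylation and decay (108 genes) 0.06 and RNA polymerase II machinery (96 genes) −0.07. By edgeR 0 were called in each; at an unadjusted p under 0.05 there were 12 higher and 20 lower, 20 and 9, 8 and 4, and 3 and 16, and DESeq2 called 5 and 5, 12 and 3, 7 and 2, and 1 and 4. Germ plasm and primordial germ cell RNAs (26 genes) had a median of 0.18, with 8 higher and 2 lower at an unadjusted p under 0.05, 0 called by edgeR and 1 in each direction by DESeq2. Over all 22724 tested genes, 3041 had an unadjusted p under 0.05 in either direction, and DESeq2 called 716 higher and 405 lower.

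Neighbouring genes in the reference annotation were both called in 3 cases, found after their values were seen. The pair tbc1d14 (LOC110500746) and kiaa0232 (LOC110500747) rose by 1.27 and 1.28 (log2) and the pair LOC118964586 and unc13bb rose by 1.25 and 1.27. In the pair LOC110522355 and tcp1 LOC110522355 rose by 1.36 and tcp1 fell by 1.32. Reads that overlap both genes of a pair cannot be told apart without the strand setting.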
